A study of Mus musculus with 8 samples.

Results

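The aminoacyl-tRNA synthetases are the enzymes that join each amino acid to its transfer RNA, the step that gives the genetic code its meaning. They were examined in mouse hearts in which Elmsan1 had been deleted in cardiomyocytes. The members were 36 genes listed by name, with earlier results of these data known, out of 45706 genes in the deposited table. Of these, 20 encode enzymes of the cytosol and 16, with names that end in 2, encode enzymes imported into mitochondria. Every one of the 36 was found in the table, and all of them passed the filter on low counts that left 15289 genes for testing.

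A synthetase activates its amino acid with ATP and then transfers it to the matching tRNA, so that the ribosome can add it to a growing protein. Mammals keep separate sets of these enzymes for the cytosol and for mitochondria, and the mitochondrial set serves the few proteins that mitochondrial DNA encodes, which are parts of the respiratory chain that a beating heart depends on. Some amino acids are handled differently: Kars and Gars each supply both compartments from a single gene, Eprs is a fused enzyme for glutamate and proline, and mitochondria make glutaminyl-tRNA by converting a misacylated tRNA. Several cytosolic synthetases also sit together in a large multisynthetase complex held by scaffold proteins.

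Bulk RNA was sequenced from whole hearts of 8-week-old male mice. The cKO group (n = 4) had the genotype Elmsan1 fl/fl;aMHC-Cre+/-, the floxed group (n = 2) Elmsan1 fl/fl, and the Cre group (n = 2) aMHC-Cre+/-. The aMHC promoter (that of Myh6) drives Cre in cardiomyocytes, so the other cells of a cKO heart keep their Elmsan1 alleles. Elmsan1 encodes MIDEAS, a scaffold of a histone deacetylase complex. The labels do not say whether a library came from a single animal, so p-values measure the spread between these samples. Each library is called a heart below, and n counts libraries.

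Upstream sequence was available from RefSeq (GRCm38.p6) for 27 of the 36 members, as 300-base windows around a transcription start. Promoters of several cytosolic synthetases are known to carry the composite element TGATGCAA, which is bound by ATF4, the factor that answers amino acid shortage. It was searched on both strands. The element was present in 4 of the 27 members (14.8%), all cytosolic, against 0.546% of the 14295 windows of genes tested here. The 4 windows are shown because they hold the only exact matches among these 27 members. Each runs from 135 bases before the start to 15 bases after it, 5′ to 3′ on the gene's own strand, with the element in capitals. In Aars, Iars and Tars it lies on the opposite strand and therefore reads TTGCATCA.
Aars, chr8:111033707-111033856, plus strand: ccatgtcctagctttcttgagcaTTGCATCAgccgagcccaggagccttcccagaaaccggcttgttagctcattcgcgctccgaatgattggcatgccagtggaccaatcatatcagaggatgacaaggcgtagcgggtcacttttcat
Iars, chr13:49681995-49682144, plus strand: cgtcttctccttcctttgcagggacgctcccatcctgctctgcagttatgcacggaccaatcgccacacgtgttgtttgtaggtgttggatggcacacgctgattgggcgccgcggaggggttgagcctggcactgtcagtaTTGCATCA
Tars, chr15:11399644-11399793, minus strand: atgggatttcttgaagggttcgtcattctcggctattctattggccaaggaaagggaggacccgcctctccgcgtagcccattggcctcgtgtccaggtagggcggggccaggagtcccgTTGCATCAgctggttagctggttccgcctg
Yars, chr4:129189768-129189917, plus strand: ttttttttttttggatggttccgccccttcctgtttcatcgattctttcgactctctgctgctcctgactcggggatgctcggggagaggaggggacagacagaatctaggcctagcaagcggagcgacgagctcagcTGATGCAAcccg

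The libraries held 17509564 to 25833259 estimated counts, and the members had raw counts from 56 (Pars2) to 10120 (Lars2) per library. Elmsan1 itself was at 14.5 ± 1.68 CPM (library-scaled counts with TMM factors, mean ± SD) in the 4 cKO hearts and 26.8 ± 1.62 CPM in the 4 control hearts (log2 -0.89, SE 0.11; adjusted p = 8.94e-05), with every cKO heart below every control heart. In cKO against both control groups 52.1% of all tested genes were called at an adjusted p under 0.05 (quasi-likelihood test of edgeR, Benjamini-Hochberg adjusted), 25.6% higher and 26.5% lower. Markers of some other cell types moved with genotype. The summed level of 8 endothelial markers was 1601 to 2321 CPM in cKO, 1007 to 1050 in floxed and 1063 to 1304 in Cre hearts, and 6 of the 8 rose and 1 fell. Of 8 macrophage markers 6 rose (327 to 435 CPM in sum in cKO, 209 to 259 over the controls), as did 6 of 6 atrial markers. Fibroblast markers were near the share of all genes, with 2 of 8 higher (25%, against 25.6%). Of 8 smooth muscle and pericyte markers 1 fell (12.5%, against 26.5% of all genes). The sum of 10 cardiomyocyte markers was 53776 to 61376 CPM in cKO, 62825 to 63407 in floxed and 58539 to 62065 in Cre hearts, with 4 members higher and 3 lower. These counts depended on length and GC content. Once both were offset in each library, 1 cardiomyocyte marker was higher and 4 were lower, 4 macrophage markers and 4 fibroblast markers were higher, and 7 endothelial markers were higher and none lower. Under upper-quartile scaling 2 smooth muscle and pericyte markers were called higher. No marker of these lists was at 0 in any library. Their part in the synthetase results was not tested, and in whole hearts fewer cells of a type and less RNA per cell cannot be told apart.

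Levels of different synthetases were compared per kilobase of the longest annotated transcript. In the 4 control hearts Lars2, the mitochondrial leucine enzyme, stood first at 106 ± 20.5 CPM per kb (SD, n = 4). Kars, the lysine enzyme of both compartments, came next at 35 ± 2.18 CPM per kb, followed by Dars (aspartate) at 27.5 ± 1.06, Nars (asparagine) at 21.4 ± 1.67 and Gars (glycine) at 20.5 ± 1.02. Pars2, the mitochondrial proline enzyme, was lowest at 1.34 ± 0.117 CPM per kb, below Mars2 (methionine) at 1.45 ± 0.168 and Wars2 (tryptophan) at 1.73 ± 0.102. Apart from the first 2 places the order depended on which transcript length was used. Per kilobase of the mean transcript length Qars (47.5), Nars (40), Gars and Fars2 (both 36.9) and Lars (36.2) stood above Dars (36.1 CPM per kb), and Mars2 (1.45) was lowest, below Pars2 (2.55).
Of the 10 highest members 8 were cytosolic, and of the 10 lowest 7 were mitochondrial. Most neighbours in the order by longest transcript could not be separated, since in 29 of the 35 neighbouring pairs the ranges over the control hearts overlapped. The exceptions were the steps from Lars2 to Kars, Kars to Dars, Dars to Nars, Aars to Tars2, Nars2 to Ears2 and Ears2 to Wars2.
Lars2 made up 52.4% of the summed CPM of the 16 mitochondrial synthetases in control hearts. In cKO hearts Lars2 and Kars kept places 1 and 2, whereas Dars moved from place 3 to place 6, Iars2 from 6 to 16 and Eprs from 7 to 17, while Sars (serine) moved from 12 to 5.

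**Figure D1:**
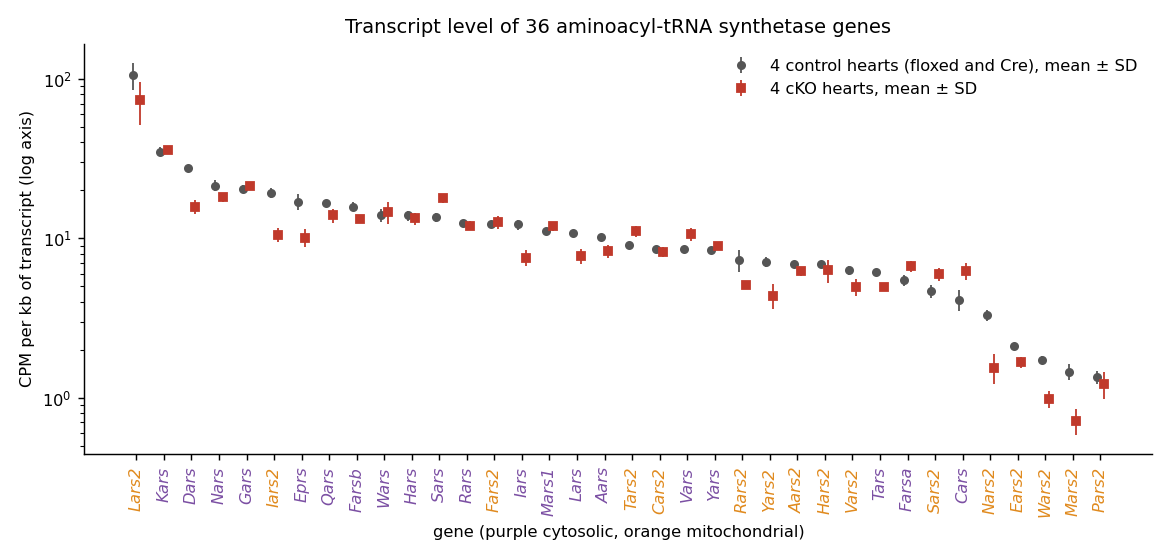
Level of the 36 synthetase transcripts in CPM per kb of transcript (log axis) in the 4 control hearts (grey circles) and the 4 cKO hearts (red squares), mean ± SD, ordered by the control level. Lars2 lies at 106 and Pars2 at 1.34 in controls, and the red squares of Dars, Iars2, Nars2, Wars2 and Mars2 lie below their grey circles.

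The synthetases changed in both directions in cKO hearts, with more falls than rises. Of the 36 genes 17 fell, 6 rose and 13 did not pass the test, so that 63.9% were called. The background is 52.1%. The share called lower was 47.2% (26.5% of all genes), and the share called higher 16.7% (25.6% of all genes). The median log2 fold change of the 36 was -0.20, and that of all tested genes was 0.04. In 16 members every cKO heart was below every control heart (25.9% of all genes) and in 5 every cKO heart was above (23.4% of all genes). Over both directions 49.3% of all genes showed such a separation. Changes were moderate, from log2 -1.09 (Nars2) to 0.61 (Cars).
Upper-quartile scaling and library size alone moved the median of all genes up by 0.12 and 0.13, and under these settings 10 members fell and 7 or 6 rose. Of all 15289 genes tested, 3351 fell and 4873 rose under upper-quartile scaling. With library size alone 2981 fell and 4753 rose. A change of scaling moves every gene by the same amount, so the distance of the synthetases' median from that of all genes, -0.24, cannot vary with it.

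**Figure D2:**
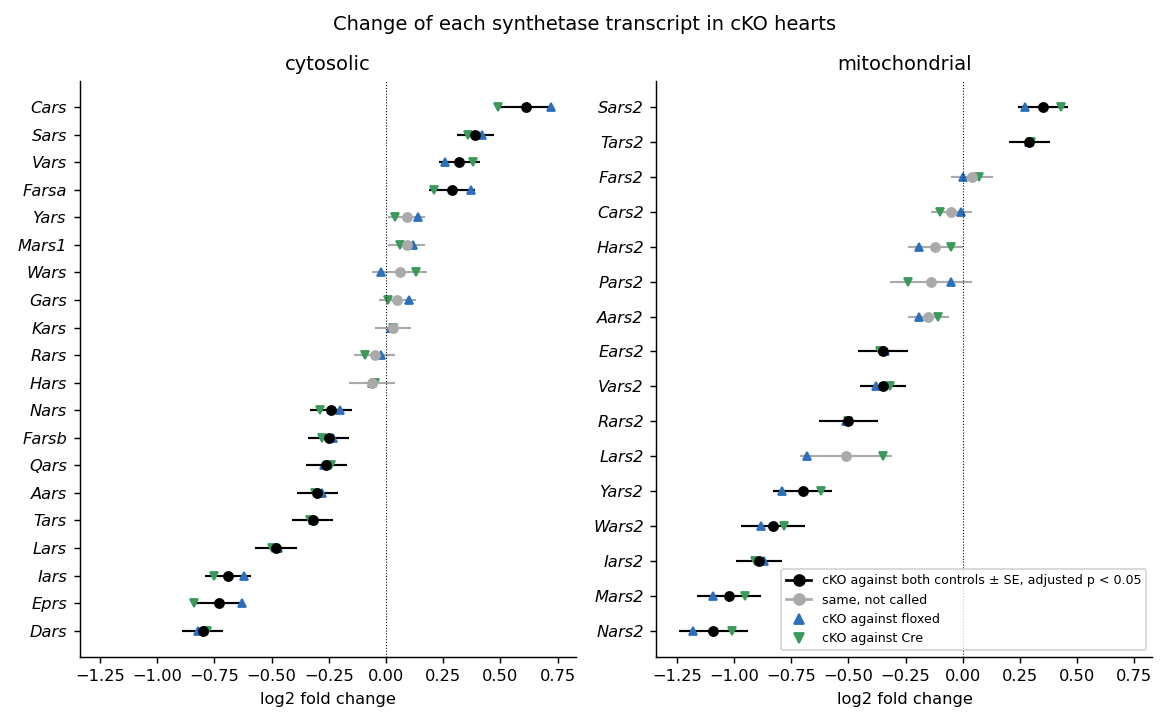
Log2 fold change of each synthetase in cKO hearts, cytosolic genes on the left and mitochondrial genes on the right. Circles with SE bars are cKO against both control groups (black where the adjusted p is under 0.05, grey otherwise), and triangles are cKO against floxed (blue) and against Cre (green). Nars2 at -1.09 and Mars2 at -1.02 are lowest and Cars at 0.61 is highest.

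Among the 20 cytosolic synthetases 9 fell (45%) and 4 rose (20%), where 26.5% of all genes fell and 25.6% rose. Their median log2 fold change was -0.05, which turned positive under upper-quartile scaling (0.06) and library size alone (0.08). The summed level of the 20 was 802, 756, 800 and 784 CPM in the cKO hearts. It was 872 and 858 CPM in the floxed hearts, and 844 and 942 CPM in the Cre hearts. With TMM scaling the cKO sums therefore lay below all control sums. This separation depended on the scaling, since the TMM factor was 1.086 for cKO 1 but 0.9196 for floxed 2. With library size alone the cKO 1 sum lies above the floxed 2 sum.
The largest rise was that of Cars, the cysteine enzyme (chromosome 7, 143557230 to 143600090, minus strand; all gene positions are GRCm38). It was at 17.4, 22.2, 18.5 and 22.4 CPM in cKO, 13.3 and 11.2 in the floxed hearts and 12.8 and 15.9 in the Cre hearts. All cKO hearts were above all controls, though the lowest cKO and the highest Cre heart were close. The rise was 1.52-fold (log2 0.61, SE 0.12; adjusted p = 0.00206).
Sars, the cytosolic serine enzyme (chromosome 3, 108424865 to 108445209, minus strand), which also loads the tRNA that is turned into selenocysteinyl-tRNA, rose 1.31-fold (log2 0.39, SE 0.08; adjusted p = 0.00291). Its levels were 61, 59.9, 68.1 and 65.8 CPM in cKO, 49.3 and 46.1 in the floxed hearts and 46.6 and 53 in the Cre hearts, without overlap.
Vars, the valine enzyme (chromosome 17, 35000987 to 35016322, plus strand), was at 38.5, 45.4, 43.1 and 48.7 CPM in cKO, 37.5 and 35.9 in the floxed hearts and 33.3 and 34.3 in the Cre hearts. The first cKO heart lay just above the higher floxed heart. Vars rose 1.25-fold (log2 0.32, SE 0.09; adjusted p = 0.0122), and the call was lost once transcript length and GC content were offset in each library (log2 0.08, adjusted p = 0.468) and without floxed 2 (log2 0.29, adjusted p = 0.0599).
Farsa, the catalytic subunit of phenylalanyl-tRNA synthetase, rose by log2 0.29 (adjusted p = 0.0239), with 1 cKO heart inside the control range, whereas the other subunit of the same enzyme, Farsb, fell (log2 -0.25, adjusted p = 0.0319). The Farsa call was lost without any 1 of the 4 control libraries (adjusted p from 0.0502 to 0.105), and that of Farsb without any of 5 libraries (0.0502 to 0.0893).

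The falls among the cytosolic enzymes were led by members of the multisynthetase complex. Dars, the aspartate enzyme (chromosome 1, 128363707 to 128417368, minus strand), was at 38.7, 36, 31 and 31.6 CPM in cKO, 60.7 and 60.6 in the floxed hearts and 56.3 and 61.4 in the Cre hearts. The groups were far apart, with a fall of 1.74-fold (log2 -0.80, SE 0.09; adjusted p = 6.97e-05). Eprs, the glutamate and proline enzyme, fell 1.66-fold from 95.2 ± 11 to 57.1 ± 7.13 CPM (SD, n = 4 each; log2 -0.73, adjusted p = 0.000227). Iars (isoleucine) fell 1.61-fold from 53.9 ± 3.89 to 33.5 ± 3.79 CPM (log2 -0.69, adjusted p = 0.000207), and Lars (leucine) 1.4-fold from 43 ± 1.47 to 30.8 ± 3.24 CPM (log2 -0.48, adjusted p = 0.00133). In none of these 4 genes did a cKO heart reach the control range.
Qars, the glutamine enzyme, completed the falls within the complex (log2 -0.26, adjusted p = 0.0392), with 1 cKO heart inside the control range. Its call was lost without any of 5 libraries (adjusted p from 0.0576 to 0.127). Mars1 (0.09), Kars (0.03) and Rars (-0.05), for methionine, lysine and arginine, did not pass the test.
Of the 8 complex members 5 therefore fell and none rose, with a median of -0.37. Of the 12 cytosolic synthetases outside the complex 4 fell and 4 rose, with a median of 0.05. Of all genes 26.5% fell and 25.6% rose, and the difference between genes inside and outside the complex was not tested. Under upper-quartile scaling Mars1 was called higher (log2 0.21, adjusted p = 0.0445), and none of the 12 outside the complex was called lower under that scaling or under library size alone.
Outside the complex, besides Farsb, the falls were Tars for threonine (given with Tars2), Aars for alanine (log2 -0.30, adjusted p = 0.0158) and Nars for asparagine (log2 -0.24, adjusted p = 0.0368). The Nars call was lost without any of 6 libraries (adjusted p from 0.0588 to 0.106). Aars lost its call under upper-quartile scaling (log2 -0.18, adjusted p = 0.093). Yars (0.09), Wars (0.06), Gars (0.05) and Hars (-0.06), for tyrosine, tryptophan, glycine and histidine, did not pass.

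Among the 16 mitochondrial synthetases 8 fell (50%, against 26.5% of all genes) and 2 rose (12.5%, against 25.6%), and the median log2 fold change was -0.35. Their summed level was 701, 534, 527 and 551 CPM in the cKO hearts, 824 and 847 in the floxed hearts, and 654 and 813 in the Cre hearts, and the first cKO heart exceeded the first Cre heart. Without Lars2 the sums were 290, 278, 302 and 299 CPM in cKO, 391 and 365 in the floxed hearts and 358 and 381 in the Cre hearts, and the groups did not overlap.
Nars2, the asparagine enzyme (chromosome 7, 96951505 to 97064758, plus strand), had the largest fall. It was at 7.21, 4.64, 6.55 and 4.87 CPM in cKO, 13.5 and 12.9 in the floxed hearts and 11.2 and 12.2 in the Cre hearts. The cKO hearts held well under the level of any control heart, 2.13-fold lower on average (log2 -1.09, SE 0.15; adjusted p = 0.000183).
Mars2, the methionine enzyme, is a gene on chromosome 1 (55237177 to 55248470, plus strand). Its levels were 10.3, 7.11, 8.01 and 6.93 CPM in cKO, 19.1 and 15.1 in the floxed hearts and 15.1 and 16.2 in the Cre hearts. It fell 2.03-fold (log2 -1.02, SE 0.14; adjusted p = 0.000196). With the offset for length and GC content the fall was smaller and stayed called (log2 -0.47, adjusted p = 0.00896). Its longest transcript, at 11294 bp, was the longest of the 36 and its GC content, 38.8%, the lowest.
Iars2, the isoleucine enzyme (chromosome 1, 185284726 to 185329396, minus strand), had the smallest p of all members. It was at 63.9, 52.3, 60.4 and 52.4 CPM in cKO, 110.0 and 98.6 in the floxed hearts and 101 and 113 in the Cre hearts, a fall of 1.85-fold (log2 -0.89, SE 0.10; adjusted p = 5.15e-05). No cKO heart came near a control heart.
Wars2, the tryptophan enzyme (chromosome 3, 99141068 to 99239186, plus strand), was at 4.37, 4.45, 3.55 and 4.8 CPM in cKO, 8.1 and 7.76 in the floxed hearts and 7.02 and 7.72 in the Cre hearts. It fell 1.78-fold (log2 -0.83, SE 0.14; adjusted p = 0.000528), again without overlap.
Yars2 (tyrosine) fell 1.63-fold from 19.9 ± 1.31 to 12.2 ± 2.21 CPM (SD, n = 4 each; log2 -0.70, adjusted p = 0.00103), and Rars2 (arginine) 1.42-fold from 13.6 ± 2.1 to 9.54 ± 0.458 CPM (log2 -0.50, adjusted p = 0.00696). Ears2 (glutamate) fell by 0.35 on the log2 scale (adjusted p = 0.0208). Its call was lost with the length and GC offset (log2 -0.15, adjusted p = 0.27) and without floxed 1 (adjusted p = 0.0728).

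Lars2 (chromosome 9, 123366927 to 123462666, plus strand), the most abundant member, had uneven levels. It was at 411, 256, 225 and 252 CPM in cKO, 433 and 482 in the floxed hearts and 296 and 432 in the Cre hearts. The first cKO heart was within the control range and the first Cre heart was near the other 3 cKO hearts. The difference, log2 -0.51 (SE 0.20), missed the threshold (adjusted p = 0.055). It passed without cKO 1 (log2 -0.75, adjusted p = 0.000745) or without Cre 1 (log2 -0.64, adjusted p = 0.0305), and with DESeq2 (adjusted p = 0.0135).
At the other end of the order, Pars2 (chromosome 4, 106651069 to 106655282, plus strand) was at 3.63, 2.77, 4.45 and 3.85 CPM in cKO, 3.9 and 3.73 in the floxed hearts and 4.56 and 4.11 in the Cre hearts. The groups overlapped and the difference of log2 -0.14 had an SE of 0.18 (adjusted p = 0.522), with 56 to 120 raw counts per library.
Aars2 (-0.15), Hars2 (-0.12), Cars2 (-0.05) and Fars2 (0.04), for alanine, histidine, cysteine and phenylalanine, did not pass the test either. With the length and GC offset Aars2 was called lower (log2 -0.44, adjusted p = 0.00315).

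**Figure D3:**
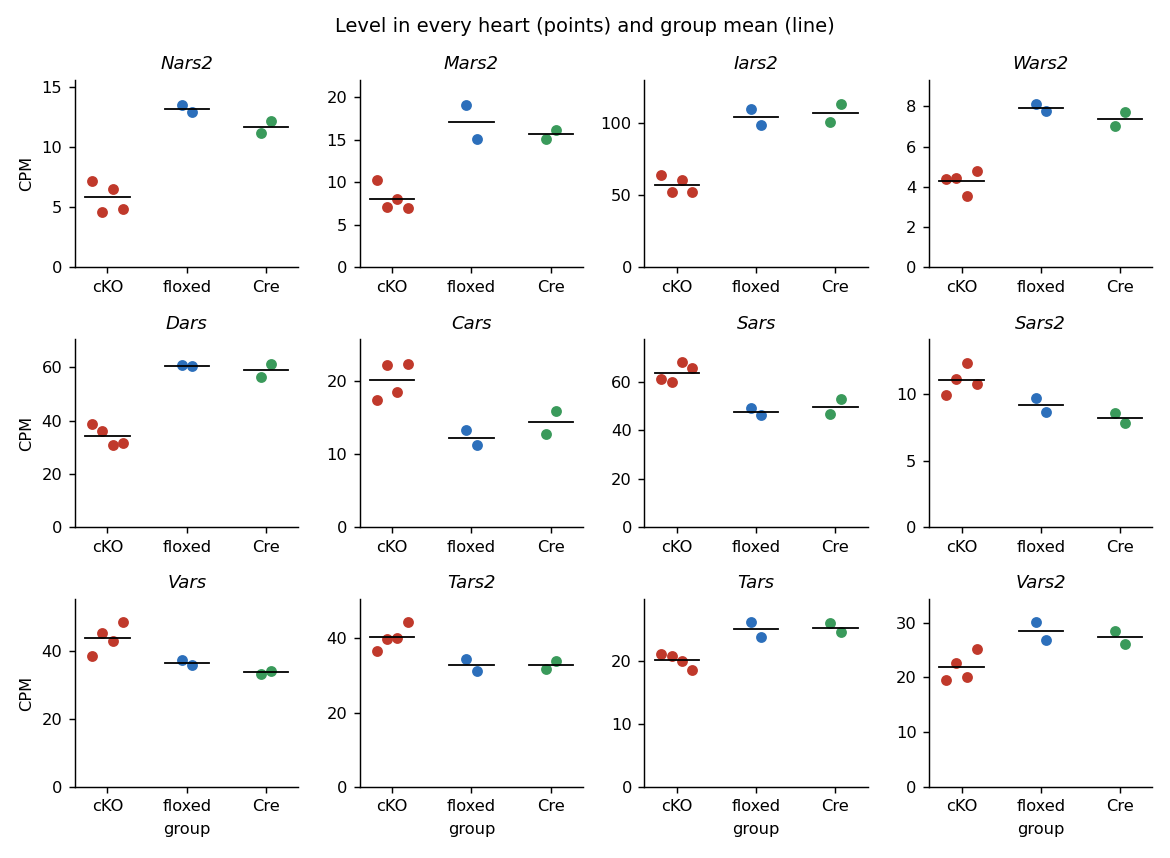
Level in CPM of 12 synthetases in each heart (points: cKO red, floxed blue, Cre green) with the group mean as a line, linear axes from 0. In all 12 panels the 4 cKO points lie on the same side of all 4 control points, below them for Nars2, Mars2, Iars2, Wars2, Dars, Tars and Vars2 and above them for Cars, Sars, Sars2, Vars and Tars2.

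Cytosolic and mitochondrial enzymes for the same amino acid could be set side by side in 16 pairs, where Eprs stands against both Ears2 and Pars2. These counts stand beside 26.5% of all genes called lower and 25.6% called higher. In 3 pairs both genes fell (Eprs and Ears2, Iars and Iars2, Nars and Nars2), and in 1 pair, for serine, both rose. The calls of Nars and Ears2 were lost under 13 and 7 of 21 alternatives. In 4 pairs (methionine, arginine, tryptophan and tyrosine) the mitochondrial gene fell while the cytosolic gene did not pass the test. The largest gap among these was methionine, with Mars1 at 0.09 and Mars2 at -1.02. In 5 pairs a call was made for the cytosolic gene and not for the mitochondrial one, and in the histidine pair for neither.
The serine pair moved together. Sars2, the mitochondrial enzyme (chromosome 7, 28741992 to 28753871, plus strand), was at 9.99, 11.2, 12.4 and 10.8 CPM in cKO, 9.72 and 8.7 in the floxed hearts and 8.58 and 7.82 in the Cre hearts. The lowest cKO heart was just above the highest control. The rise was 1.28-fold (log2 0.35, SE 0.11; adjusted p = 0.023), but its sign turned with the length and GC offset (log2 -0.18, adjusted p = 0.206), and the call was lost without cKO 3, floxed 2 or Cre 2 (adjusted p from 0.0695 to 0.105). Its transcript has a GC content of 60.1%, among the highest of the 36.
In the valine and threonine pairs the calls went opposite ways. Vars rose, as given above, while Vars2 (chromosome 17, 35655634 to 35667592, minus strand) was at 19.6, 22.6, 20.0 and 25.2 CPM in cKO, 30.1 and 26.9 in the floxed hearts and 28.5 and 26.2 in the Cre hearts. Every cKO heart was below every control heart, and Vars2 fell 1.28-fold (log2 -0.35, SE 0.10; adjusted p = 0.0151). The offset kept this fall (log2 -0.52, adjusted p = 0.00111), but it was not called without cKO 3, floxed 1 or Cre 1 (adjusted p from 0.0508 to 0.0654).
For threonine the cytosolic gene was the lower one. Tars (chromosome 15, 11382301 to 11399665, minus strand) was at 21, 20.7, 20.0 and 18.6 CPM in cKO, 26.2 and 23.8 in the floxed hearts and 26 and 24.5 in the Cre hearts, a fall of 1.25-fold (log2 -0.32, SE 0.09; adjusted p = 0.00985) that was lost with the offset (log2 -0.09, adjusted p = 0.406) and without floxed 1 (adjusted p = 0.0505). Tars2 (chromosome 3, 95739976 to 95760206, minus strand) was at 36.7, 39.9, 40.1 and 44.5 CPM in cKO, 34.5 and 31.3 in the floxed hearts and 31.9 and 33.8 in the Cre hearts. It rose 1.23-fold (log2 0.29, SE 0.09; adjusted p = 0.0162), and this stayed called with the offset (log2 0.36, adjusted p = 0.0059) but not without floxed 2 or Cre 1 (adjusted p from 0.0589 to 0.0857).

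**Figure D4:**
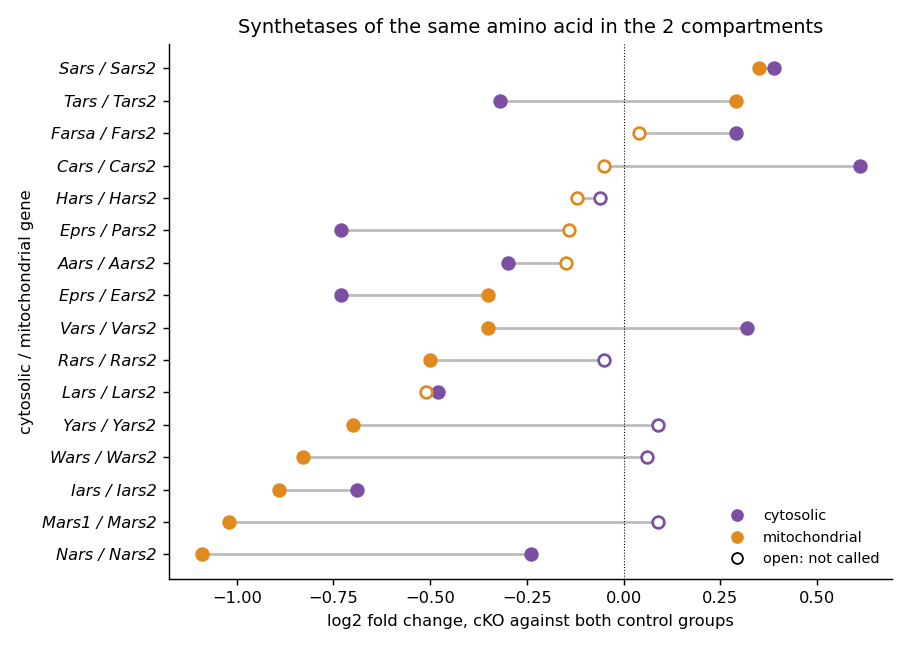
Log2 fold change in cKO against both control groups for the cytosolic (purple) and mitochondrial (orange) synthetase of each amino acid, joined by a line. Filled circles passed the test and open circles did not. The serine genes lie together at 0.39 and 0.35, while the lines for valine and threonine cross 0 with filled circles at both ends.

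Synthetases fall into class I and class II, with unrelated catalytic folds. Eprs was counted in class I for its glutamate part. Of 19 class I genes 11 fell (57.9%) and 2 rose (10.5%), with a median log2 of -0.35. Of 17 class II genes 6 fell (35.3%) and 4 rose (23.5%), with a median of -0.12. The shares over all genes were 26.5% and 25.6%. The balance in class II turned with the scaling, with 2 falls and 4 rises both under upper-quartile scaling (median -0.01) and under library size alone (median 0.01). Class I had 8 falls under each of these scalings, with 3 and 2 rises. Within the mitochondrial set 7 of 9 class I genes fell and none rose (median -0.51), and 5 fell under each of these scalings. The 2 that did not pass were Lars2 and Cars2. Of 7 mitochondrial class II genes 1 fell, Nars2, and 2 rose, Sars2 and Tars2. Among cytosolic genes 4 of 10 in class I fell and 2 rose, and 5 of 10 in class II fell and 2 rose. Under upper-quartile scaling and under library size alone 1 of the 10 cytosolic class II genes fell and 2 rose. The difference between the classes was not tested.

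The 2 control groups allow the contrast to be split, although both parts share the cKO libraries. Against the floxed hearts 13 members fell and 3 rose (of all genes 42.9% were called, 23.1% lower and 19.8% higher), with a median of -0.20. Against the Cre hearts 13 fell and 5 rose (of all genes 42.4% were called, 22.8% lower and 19.6% higher), with a median of -0.24. Nars2 was at log2 -1.18 and -1.01 in these contrasts, Mars2 at -1.09 and -0.95, Iars2 at -0.87 and -0.91, and Dars at -0.82 and -0.78, each called in both. Cars was at 0.72 against floxed and 0.49 against Cre, and Sars at 0.42 and 0.36, also called in both. The 3 rises against floxed were Cars, Sars and Farsa, and those against Cre were Cars, Sars, Vars, Sars2 and Tars2. Lars2 was called lower against floxed (log2 -0.68, adjusted p = 0.0447) and not against Cre (log2 -0.35, adjusted p = 0.272), and the difference between those contrasts, which is Cre against floxed, was log2 -0.33 with an SE of 0.28 (adjusted p = 1).
Between the control groups no member was called, where 0.0981% of all genes were, 0.00654% higher and 0.0916% lower. By edgeR and by DESeq2 no member reached an unadjusted p under 0.05 either. The differences ranged from log2 -0.33 (Lars2) to 0.23 (Cars), with SEs from 0.11 to 0.28, so the 2 hearts of each group leave room for differences of that size.

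Fold changes of the synthetases went with the base composition of their transcripts. Across the 36 genes, which share the same 8 libraries and so are no independent replicates, the log2 fold change had a Spearman's rho of 0.66 with the GC content of the longest transcript and of -0.39 with its length. Across 13744 coding genes the same values were 0.34 and -0.40. Within the cytosolic set (n = 20) they were 0.67 and -0.11, and within the mitochondrial set (n = 16) 0.71 and -0.52.
When the genes were ordered by GC content, 11 of the 12 lowest (38.8% to 47.2%) fell and none rose, with a median of -0.71. Of the 12 highest (51.7% to 60.9%) 2 fell and 4 rose, with a median of 0.07. Of all genes 26.5% fell and 25.6% rose, and no share was taken for all genes of the same GC range. This grouping by GC content was chosen after the values were seen.
An offset for length and GC content left 14 members lower and 4 higher. It was fitted per library over protein-coding genes of known length above a count limit. Of all 15289 genes tested, 3698 were lower and 3193 higher with it. The median moved from -0.20 to -0.17 for all 36, from -0.05 to -0.08 for the cytosolic genes and from -0.35 to -0.43 for the mitochondrial genes. With it Nars2 (-0.88), Dars (-0.78), Yars2 (-0.61), Iars2 (-0.57), Wars2 (-0.57), Rars2 (-0.55), Vars2 (-0.52), Mars2 (-0.47), Iars (-0.46), Eprs (-0.37), Aars (-0.30), Farsb (-0.29) and Lars (-0.27) stayed lower, Aars2 joined them, and Cars (0.51), Farsa (0.39), Sars (0.36) and Tars2 (0.36) stayed higher. After the offset rho with GC content was still 0.45 and that with length -0.16.

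**Figure D5:**
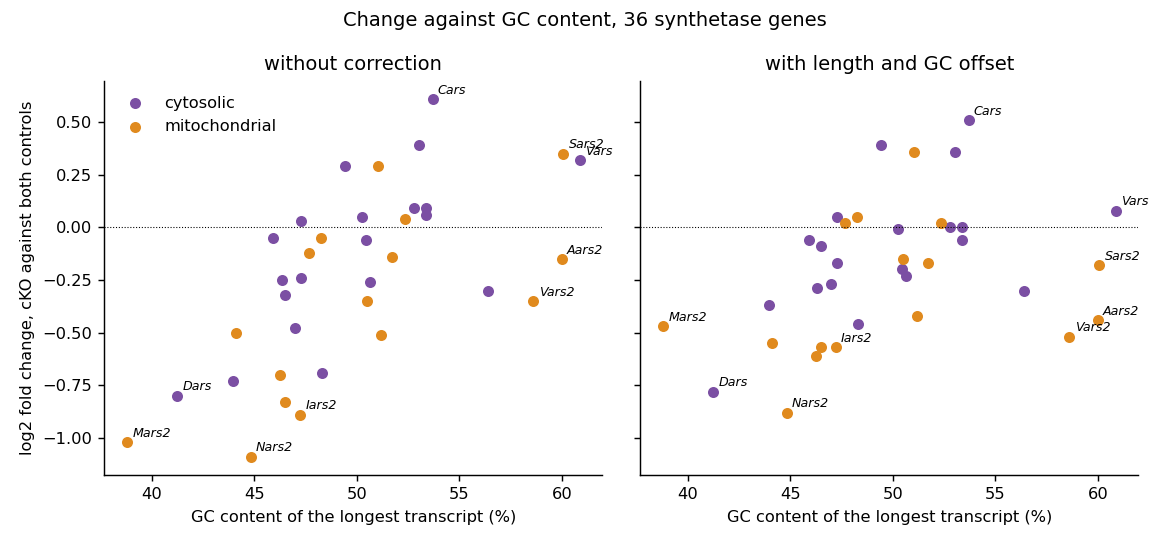
Log2 fold change in cKO against both control groups (vertical axis) and GC content of the longest transcript in percent (horizontal axis) for the 20 cytosolic (purple) and 16 mitochondrial (orange) synthetases, uncorrected on the left and offset for length and GC content on the right. On the left Mars2 (38.8%) lies at -1.02 and Sars2 at 0.35; on the right they lie at -0.47 and -0.18.

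Some members share sequence or exons with neighbours, and the strand setting of the counting is not given in the sources used here, so their values are less certain. Of the 50-base words in the longest Iars2 transcript 36.6% also occur in Rab3gap2, whose exons overlap it on the opposite strand by 2034 bp. Rab3gap2, looked up for this reason, was lower too (log2 -0.39, adjusted p = 0.00711), and at 0.01 with the offset. For Aars 22.4% of the words are shared with Exosc6 on the same strand, for Farsb 10.1% with Sgpp2, for Iars 8.61% with the pseudogene Gm4849, for Hars 7.53% with Hars2, for Nars2 6.3% with C230038L03Rik, and for Vars2 3.61% with Gm20483. Dars, Eprs, Mars2, Yars2, Cars and Sars shared no such word with another annotated gene.

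Among the windows printed above, the genes with TGATGCAA did not all move. Aars (-0.30), Iars (-0.69) and Tars (-0.32, lost with the offset) were lower and Yars (0.09) did not pass. The looser form TGATGNAA, which contains the first, occurred also in Gars (0.05), in 18.5% of the members with a window and 2.24% of the windows of tested genes. The E-box CACGTG was found in 5 members, Aars, Ears2, Farsb, Iars and Tars (18.5%, against 9.63%). All 5 were called lower, as were 47.2% of the 36 members and 26.5% of all genes. Under upper-quartile scaling Aars (adjusted p = 0.093), Ears2 (0.0914), Farsb (0.183) and Tars (0.0611) lost their calls, and Ears2 and Tars lost them with the offset too. The ETS motif CCGGAAG was found in 9 members (33.3%, against 15.8%), of which 3 rose, 2 fell and 4 did not pass. The motif of NRF1, given by name only, was found in 5 members (18.5%, against 8.96%), of which Farsb, Iars2, Mars2 and Tars fell and Kars did not pass. All motifs were searched on both strands. The matches are letters in a window, and no binding was measured.

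Partners of the synthetases were measured in the same hearts, where 52.1% of all genes were called. Of the 3 scaffold genes of the multisynthetase complex, Aimp1 rose (log2 0.35, adjusted p = 0.00561) and Eef1e1 fell (log2 -0.52, adjusted p = 0.0161; lost without Cre 2, adjusted p = 0.053). Aimp2 rose (log2 0.38, adjusted p = 0.0116; lost without floxed 1, adjusted p = 0.0526), but was at -0.14 with the length and GC offset (adjusted p = 0.386). Tarsl2, a further cytosolic threonine enzyme outside the 36, fell 2.57-fold from 43.9 ± 3 to 17 ± 4.39 CPM (SD, n = 4 each; log2 -1.36, adjusted p = 0.000114). Of 4 genes that complete mitochondrial glutaminyl-tRNA and formylmethionyl-tRNA, Gatc (log2 -0.72, adjusted p = 0.00038) and Qrsl1 (log2 -0.50, adjusted p = 0.00137), both subunits of the amidotransferase, fell, and Gatb (-0.14) and Mtfmt (0.13) did not pass.

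Many cytosolic synthetases are known targets of the amino acid response, in which ATF4 raises amino acid synthesis and transport genes, and Wars is known to be induced by interferon. Of 23 tested amino acid response genes 7 rose (30.4%, against 25.6% of all genes) and 2 fell (8.7%, against 26.5%), with a median log2 of 0.32. The share called in either direction, 39.1%, was below the 52.1% of all genes. The largest rises were Nupr1 (log2 1.18, adjusted p = 0.00671), a stress-induced chromatin protein, Ddit3 (log2 1.11, adjusted p = 0.000206), which encodes CHOP, and Trib3 (log2 1.11, adjusted p = 0.00476), a pseudokinase that restrains ATF4. The falls were Slc7a1, the arginine transporter (log2 -1.27, adjusted p = 4.71e-05), and Shmt2, mitochondrial serine hydroxymethyltransferase (log2 -0.35, adjusted p = 0.00747). Ddit3 exons overlap those of Mars1 on the opposite strand by 68 bp. Atf4 itself, named here after its value was seen, rose (log2 0.39, adjusted p = 0.0111), and was at 0.04 with the offset (adjusted p = 0.76). The Atf4 rise was called against Cre (log2 0.61, adjusted p = 0.0047) and not against floxed (log2 0.18, adjusted p = 0.317). The higher floxed heart, at 74.1 CPM, lay within the cKO range of 64.7 to 85.4 CPM. With the offset the list held 3 rises and 3 falls.
Of the 20 cytosolic synthetases 4 rose (20%, against 25.6% of all genes) and 9 fell (45%, against 26.5%) in the same hearts. Of the 4 that rose, Cars and Sars kept their call under the offset and under each library left out. Sars lost it with the replicate block and the offset together (adjusted p = 0.0532). Of the 4 genes with TGATGCAA 3 fell and 0 rose. A link of the synthetases to the amino acid response was not tested.
The 11 interferon response genes reported here rose (25.6% of all genes did), led by Irf7 (log2 1.38, adjusted p = 0.00038), Psmb8 (log2 1.31, adjusted p = 5.34e-05) and Xaf1 (log2 1.11, adjusted p = 5.01e-05). Wars was at 41.9 ± 6.84 CPM in cKO and 40.4 ± 3.72 CPM in control hearts (SD, n = 4 each; log2 0.06, SE 0.12, adjusted p = 0.719), and its sign varied with the setting, for example -0.06 with the offset.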

How the data were processed

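RNA-seq of 8 mouse heart libraries was used, grouped by the genotype labels. The authors deposited estimated counts per gene for 45706 Ensembl identifiers, made from reads for which STAR 2.5.1b, DESeq2 and the builds mm10 and GRCm38 are named in the submitters' processing notes. Which program counted, with what annotation and strand setting, is not given in the sources used here. Between 71.95% and 76.34% of the values above 0 were whole within a tolerance of 1e-06. For the test, which had been planned for counts, the estimated counts were rounded.

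Symbols, positions, transcript lengths and GC content came from GENCODE M21, and Mars1 is named Mars there. Genes were filtered with filterByExpr and scaled by TMM. All 8 libraries were fitted together as 3 group means (5 residual degrees of freedom) with robust dispersion in edgeR 4.0.16 (R 4.3.3), and contrasts were tested with the quasi-likelihood test, adjusted by Benjamini-Hochberg over the 15289 genes at 0.05. The main contrast was cKO minus the average of both control group means. Standard errors (SE) were derived from the test statistic. CPM are library-scaled counts with TMM factors, given as mean ± SD. Shared sequence was the share of 50-base words of the longest transcript found in another annotated gene.

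The members, the companion and marker lists and the motifs were chosen with earlier results of these data known, so their counts are descriptions, to be read beside the shares of all tested genes called. Every synthetase is named. Values in every heart are given for the 5 largest called rises and the 5 largest falls, for pairs called in opposite ways and for the highest and lowest member per length. Of each companion list up to 3 called genes each way are named; 2 genes first listed among the companions are not reported here and not in the counts. Alternatives were median-ratio and upper-quartile scaling, library size alone, DESeq2 1.42.0, no filter, a mean of at least 1 CPM, a replicate block, a fit without robust dispersion, pooled controls, each control group alone, only the groups compared, a per-library offset for log2 length and GC content (mgcv 1.9.3; values for 99.5% of tested genes), the offset with the block, mean transcript length, and leaving out each library. The tests were tried on simulated counts. Rank correlations were computed with scipy 1.17.1 and figures drawn with matplotlib 3.10.9.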

Additional observations from a re-analysis of the deposited data

Results flagged for a closer look

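In the cKO group 2 of the 36 synthetases had a heart far from the other 3, by the gap to the nearest heart divided by the range of the 4. Both ratios passed Dixon's 95% critical value for 4 samples, which chance passes in about 1 in 20 groups. For Ears2 this ratio was 0.861, with the heart cKO 3 at 9.12 CPM and the others at 7.69 to 7.89 CPM. For Lars2 it was 0.836, with cKO 1 at 411 CPM and the others at 225 to 256 CPM. Without cKO 1 the Lars2 difference passed the test (log2 -0.75, adjusted p = 0.000745).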

How the results depend on the processing

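Of the 23 called members 9 (Cars, Dars, Eprs, Iars, Iars2, Mars2, Nars2, Wars2 and Yars2) kept their direction and call under all 21 alternatives, and of the called members the sign turned only for Sars2 (-0.18 with the length and GC offset, -0.17 with the offset and the replicate block). Of all 36, 6 rose and 17 fell, and leaving out 1 library gave 2 (without floxed 2) to 6 rises and 11 (without floxed 1) to 18 falls. Rises became 3 against floxed only, and falls 10 under upper-quartile scaling and 10 under library size alone. Cytosolic rises were 2 to 4 with a library left out, and cytosolic falls 5 to 9, 5 against floxed only, and 4 under upper-quartile scaling and 4 under library size alone. Mitochondrial rises were 0 to 2 with a library left out (0 without floxed 2), 1 without filter, 1 with the offset and 0 against floxed only. Against floxed, rises were 6 under upper-quartile scaling, 5 under library size alone and 0 (without floxed 2) to 5 with a library left out, and falls 8 under library size alone and 8 (without floxed 1) to 13 with a library left out. Against Cre, rises were 3 without filter, 2 with the offset and 0 (without Cre 1) to 5 with a library left out (1 without Cre 2, and 3 without cKO 2, cKO 3 or floxed 2), and falls 9 to 14. Falls among the companion genes were 16, and 9 under library size alone. With 2 libraries in a control group the deviations from the group mean mirror each other, so their correlations cannot show whether libraries were paired. Libraries with the same number had correlations of -0.0448 between floxed and Cre, and -0.108 to 0.133 between cKO and controls. The numbers are those of the sample titles, and only 2 are shared by all groups. The library names number floxed 1 and 2 as 2 and 3, and by those numbers the correlations were -0.108 to 0.139; no block by library name was fitted. With the number as a replicate block (2 residual degrees of freedom) 2 members rose, 2 of them cytosolic and 0 mitochondrial, and 0 rose against Cre. Numbers 3 and 4 occur only in the cKO group. In fits with the block, cKO 3 and cKO 4 therefore had block terms of their own and did not inform the contrasts. With the replicate block and the offset 2 rose (2 cytosolic, 0 mitochondrial), 4 cytosolic genes fell, 7 fell against floxed, and 0 rose and 8 fell against Cre. Signs turned in members that had not passed the test. These were Gars (-0.01) and Yars (0.00) with the offset, Hars under upper-quartile scaling (0.06) and library size alone (0.08), and Rars under the same (0.06 and 0.08), with the block (0.01) and with both (0.04). Yars was at -0.01 with both, and Kars at -0.01 and -0.03 without floxed 2 or Cre 1. Wars was at -0.03 with the block, -0.06 with the offset, -0.10 with both, -0.02 against floxed only, and -0.05 (without cKO 4) to 0.13 with a library left out. Cars2 was at 0.06 under upper-quartile scaling, 0.08 under library size alone, 0.05 with the offset, 0.02 with both and -0.08 to 0.00 (without cKO 2) with a library left out. Fars2 was at -0.09 with the block, -0.07 with both, -0.01 without cKO 3 and 0.00 against floxed only, and Hars2 at 0.01 under library size alone and 0.02 with the offset. Among partners, Aimp2 was at -0.14 with the offset and -0.04 with both. Over all genes the block with the offset called 5204 against both control groups, 4248 against floxed and 3994 against Cre; without floxed 1 or 2, 3600 and 3624 were called against floxed, and without Cre 2, 3929 against Cre. Of all calls in cKO against both control groups 49.1% were higher, 59.3% under upper-quartile scaling and 61.5% under library size alone. Cre against floxed, with 15 genes, gave 58 by DESeq2, 31 without filter, 84 with the block, 78 with both, 32 from the groups compared only, and 7 to 9 without floxed 2, Cre 1 or Cre 2. By mean transcript length the control levels of Lars2, Kars and Pars2 were 205, 53.5 and 2.55 CPM per kb. The causes of these changes were not tested. Depth limits Pars2 most, with 56 to 120 counts.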

Other observations

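Genes that act on tRNA before and after charging were called in cKO hearts at a share near that of all genes. Of 25 genes of tRNA processing, modification and export 9 fell (36%, against 26.5% of all genes) and 3 rose (12%, against 25.6%), so that 48% were called, where the share of all genes was 52.1%. Their median log2 fold change was 0.09 beside 0.04 for all genes, and -0.24 with the length and GC offset. The largest falls were Trmt10c, a subunit of mitochondrial RNase P (log2 -1.07, adjusted p = 8.21e-05), Nsun3, which modifies mitochondrial methionine tRNA (log2 -0.84, adjusted p = 0.00198), and Mto1, which modifies the wobble base of mitochondrial tRNAs (log2 -0.77, adjusted p = 9.77e-05). The rises were Trmt1, a tRNA guanine methyltransferase (log2 0.73, adjusted p = 0.000189), Tsen54, a subunit of the tRNA splicing endonuclease (log2 0.60, adjusted p = 0.0105), and Trmu, a mitochondrial thiouridylase (log2 0.41, adjusted p = 0.0179). With the offset Tsen54 (0.10) and Trmu (0.12) were no longer called. The Trmu call was also lost without floxed 2 or Cre 2 (adjusted p from 0.0735 to 0.0807). Under upper-quartile scaling 9 of the 25 rose and 7 fell, and under library size alone 7 rose and 4 fell.

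Of 5 proofreaders of charged tRNA 2 rose (40%, against 25.6% of all genes) and none fell: Ankrd16, which protects Aars from errors with serine (log2 0.69, adjusted p = 0.000202), and Aarsd1, an editing enzyme for alanyl-tRNA (log2 0.67, adjusted p = 0.000109), which was at 0.18 with the offset (adjusted p = 0.119). Of 3 genes of selenocysteine tRNA charging, which starts from the product of Sars, Sephs2, a selenophosphate synthetase, fell 2.34-fold (log2 -1.23, adjusted p = 0.00263). Pstk, the kinase of seryl-tRNA, rose (log2 0.29, adjusted p = 0.034), a call lost without any of 5 libraries (adjusted p from 0.0662 to 0.146) and under DESeq2 (adjusted p = 0.0531), and Sepsecs was at 0.11. With the offset Pstk (0.64, adjusted p = 0.00121) and Sepsecs (0.45, adjusted p = 0.0119) were called higher, and Sephs2 stayed lower (-1.40, adjusted p = 0.00235).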
